A study of Mus musculus with 12 samples.

Results

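The 37 genes described here encode the enzymes of sterol and fatty acid synthesis and the proteins that control them, and they were chosen by name from that biochemistry. A probe set of its own measured 34 of the 37, out of 19937 genes measured on the arrays, and 29 of the 34 passed the filter on low values, out of 11240 genes tested. Acat2, Nr1h2 and Soat1 were not analysed here. By role, the mevalonate pathway gave 6 tested genes, the steps from squalene to cholesterol 9, the control of the sterol-sensing transcription factors with sterol transport 6, the efflux genes 1, and fatty acid synthesis and desaturation 7. Expression was measured as total RNA on Affymetrix mouse gene arrays, 12 in all, and every level below is a deposited log2 value, normalised with robust multi-array averaging (RMA).

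All cells were taken from Peyer's patches, where the gut wall holds clustered lymphoid follicles, of mice with an IL-21eGFP BAC transgene, in which green fluorescent protein (GFP) reports the gene of the cytokine IL-21. Every group was sorted as CD4+ and negative for MHC II and Epcam, so transgene and gate were shared by all 4 groups. GFP+ Tfh and GFP- Tfh were CXCR5+PD1+ follicular helper T (Tfh) cells with and without reporter signal. CXCR5+PD1- and CXCR5-PD1- cells were sorted as PD1- and are named by their labels, which differ in the follicle-homing receptor CXCR5. Their titles also give GFP-, so reporter-positive cells stood in the GFP+ Tfh group alone. Each group had 3 arrays, numbered 1 to 3. The reporter marks cells by GFP and not by IL-21 protein, no treatment, age or other allele is given, and nothing in the labels says whether the replicates were separate mice, and the p-values cover the spread among these 12 samples, which may be technical. The titles and the sorting protocol place the GFP+ cells in the CXCR5+PD1+ gate, whereas another label on those arrays gives CXCR5- and PD1-; the groups follow the titles. The 8 Tfh genes examined were all higher in both Tfh gates together than in both PD1- gates together, among them Cxcr5 by 2.92 ± 0.19 (log2, SE), Pdcd1, which encodes PD1, by 2.09 ± 0.20 and Il21 by 3.71 ± 0.40, and Cd4 stood between 9.52 and 10.52 on the 12 arrays, above every array median. Between the PD1- gates Cxcr5 did not follow the labels: it stood at 5.87, 5.78 and 5.19 in the cells labelled CXCR5+PD1- and at 6.19, 5.59 and 5.36 in those labelled CXCR5-PD1-, a difference of -0.10 ± 0.26 with overlapping arrays, so its RNA does not tell these gates apart. Cxcr5 passed the filter on low values through Tfh arrays alone. The epithelial marker Epcam, gated out, was below the filter, with group means of 5.03 to 5.20.

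Sterol synthesis starts from acetyl-CoA, runs through mevalonate and the isoprenoids to squalene, and ends, after the ring is closed and trimmed, in cholesterol. When membrane sterol is low, SCAP carries the SREBP transcription factors from the endoplasmic reticulum to be cleaved, and they switch on sterol and fatty acid genes; INSIG proteins hold SCAP back when sterol is plentiful, and oxysterols activate the LXR receptors, which induce the cholesterol exporters ABCA1 and ABCG1. T cells raise both pathways when they grow and divide, and desaturases set how fluid the resulting membranes are.

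Across these genes the Tfh gates and the PD1- gates differed at 6 genes, 3 in each direction. Scd2, a stearoyl-CoA desaturase, Fads2, the delta-6 fatty acid desaturase, and Pmvk, phosphomevalonate kinase, were higher in Tfh cells (5.05% of all genes were called higher). Nsdhl, a dehydrogenase that helps remove methyl groups from the sterol ring, Hmgcs1, which makes HMG-CoA at the head of the mevalonate pathway, and Abcg1, a cholesterol exporter, were lower (5.33% of all genes were called lower). The 6 were 20.7% of the 29 tested genes, and 8 of the 29 had an unadjusted p under 0.05, against 10.4% (1167 of 11240) and 21.5% of all genes in the same fit (limma with Benjamini-Hochberg adjustment over all tested genes, adjusted p under 0.05). The median difference over the 29 was 0.02 log2, against -0.02 over all genes, and 16 of the 29 differed by less than 0.2. Among all 11240 genes, 7410 differed by less than 0.2. Fads2, Scd2 and Tm7sf2 passed the filter only through Tfh arrays, so the count of genes called carries no weight of its own. In sorted bulk samples, fewer cells of a type and less RNA per cell cannot be told apart. Fitted without the 3 GFP+ Tfh arrays, a setting chosen after seeing the data, 2 of the 29 were called (Scd2 and Fdft1). Without any 1 of the GFP- Tfh, CXCR5+PD1- or CXCR5-PD1- arrays the count was 2 or 3, and without single GFP+ arrays it was 4 to 7. The calls among all genes moved as well, from 870 to 1981 over the 23 alternatives of this comparison.

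**Figure D1:**
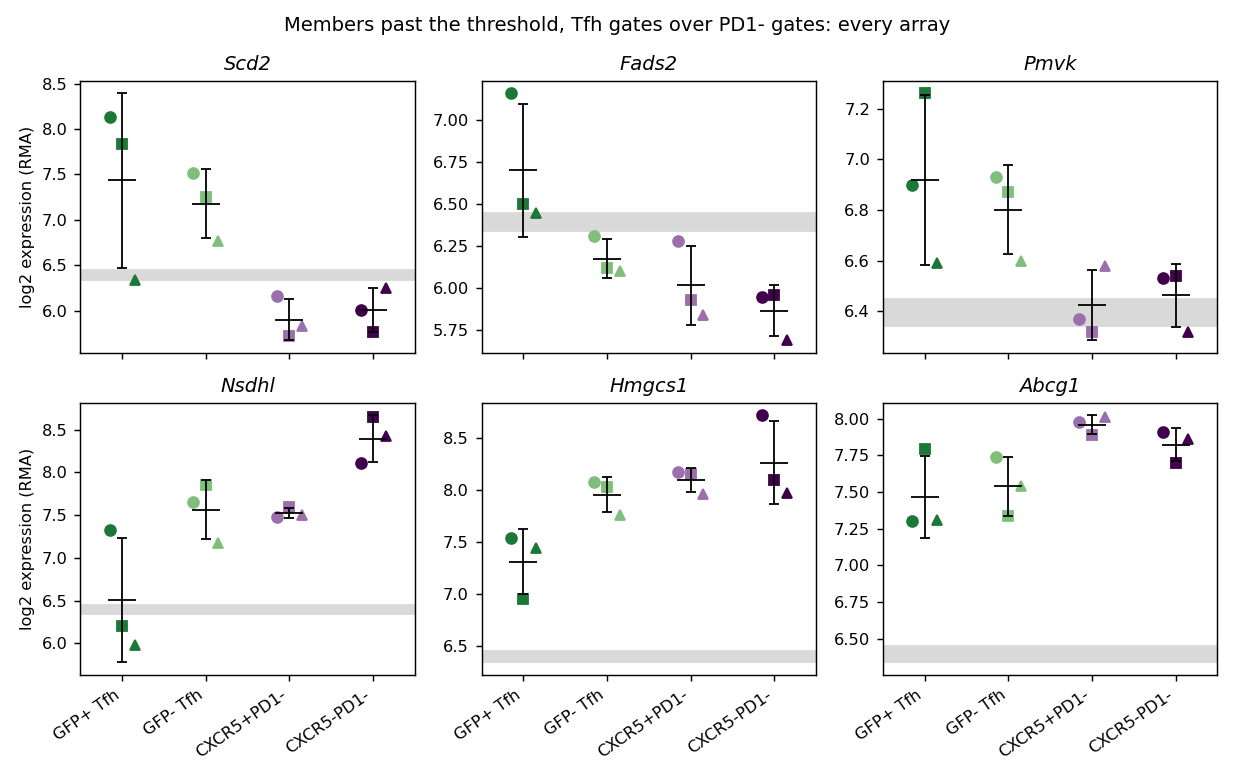
RMA log2 expression (y axis) of the 6 genes that differed between the Tfh and the PD1- gates, on each of the 12 arrays by sorted group (x axis); circles, squares and triangles are replicates 1, 2 and 3, bars the group mean ± SD (n = 3), and the grey band the range of the array medians, 6.34 to 6.45. Scd2 lies between 6.34 and 8.13 on Tfh arrays and between 5.72 and 6.25 on PD1- arrays, whereas Nsdhl lies between 5.98 and 7.33 on GFP+ Tfh arrays and between 8.11 and 8.65 on CXCR5-PD1- arrays.

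Because SREBPs act through short promoter motifs, the stretches around the start sites of the called genes with the smallest p-values, Scd2 excepted, are shown, together with that of Cyp51, the gene with the smallest p-value among the uncalled ones with an entry. They are RefSeq windows (GRCm38.p6) from 250 bases before the start to 50 after it, written 5′ to 3′ on the gene's strand, at chrX:72918271-72918570 (plus strand) for Nsdhl, chr13:119690101-119690400 (plus) for Hmgcs1, chr19:10101454-10101753 (minus) for Fads2 and chr5:4104648-4104947 (minus) for Cyp51. Capitals mark each match, on either strand, to a sterol regulatory element-like motif (TCACNCCAC), a CCAAT box (CCAAT), a GC box (GGGCGG) or an E-box (CACGTG); no matches of different motifs overlapped.
Nsdhl: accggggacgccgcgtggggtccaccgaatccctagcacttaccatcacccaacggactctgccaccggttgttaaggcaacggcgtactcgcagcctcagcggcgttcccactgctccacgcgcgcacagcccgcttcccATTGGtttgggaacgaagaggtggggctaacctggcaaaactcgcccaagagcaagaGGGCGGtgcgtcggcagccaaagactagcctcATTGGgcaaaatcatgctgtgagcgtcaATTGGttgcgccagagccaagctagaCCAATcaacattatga
Hmgcs1: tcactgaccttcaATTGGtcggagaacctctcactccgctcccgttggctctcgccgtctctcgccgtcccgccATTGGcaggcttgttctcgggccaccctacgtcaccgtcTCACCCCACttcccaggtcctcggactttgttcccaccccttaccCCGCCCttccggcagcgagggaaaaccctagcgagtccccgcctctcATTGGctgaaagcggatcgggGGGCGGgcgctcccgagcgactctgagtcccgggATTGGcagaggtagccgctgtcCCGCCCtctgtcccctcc
Fads2: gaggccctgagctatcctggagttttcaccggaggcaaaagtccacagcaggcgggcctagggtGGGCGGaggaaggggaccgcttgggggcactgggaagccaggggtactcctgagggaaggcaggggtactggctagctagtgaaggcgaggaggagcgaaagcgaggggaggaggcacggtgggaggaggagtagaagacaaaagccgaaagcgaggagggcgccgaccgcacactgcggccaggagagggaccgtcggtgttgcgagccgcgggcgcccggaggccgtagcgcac
Cyp51: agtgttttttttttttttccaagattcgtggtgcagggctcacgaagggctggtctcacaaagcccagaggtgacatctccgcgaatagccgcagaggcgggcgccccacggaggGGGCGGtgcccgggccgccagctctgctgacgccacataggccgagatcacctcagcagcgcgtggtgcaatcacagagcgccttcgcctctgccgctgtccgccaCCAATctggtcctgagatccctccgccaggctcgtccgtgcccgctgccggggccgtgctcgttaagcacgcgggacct
Hmgcs1 held the only match to TCACNCCAC among the 35 windows of the 26 genes with an entry, TCACCCCAC at position -137 from the start. Of all 32851 promoter windows, 1.24% held that motif. Variants of it were not searched, so other windows may hold sterol regulatory elements with different letters. CCAAT boxes stood in 60% of the 35 windows, against 37.4% of all windows, GC boxes in 71.4% against 35.7%, and E-boxes in 20% against 7.15%. Nsdhl held 4 CCAAT boxes and 1 GC box, Cyp51 held 1 of each, and Fads2 held 1 GC box alone. A match is a run of letters and was not tested as a binding site.

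Of the 7 tested genes of fatty acid synthesis and desaturation, Scd2 and Fads2 were called, both higher in Tfh cells, and both had passed the filter through Tfh arrays alone. For Fads2 these were the 3 GFP+ arrays. Of the other desaturases, Fads1 was not called and Scd1 was below the filter. Scd2 stood at 8.13, 7.83 and 6.34 in GFP+ Tfh cells, 7.52, 7.25 and 6.77 in GFP- Tfh cells, 6.16, 5.72 and 5.83 in CXCR5+PD1- cells and 6.01, 5.77 and 6.25 in CXCR5-PD1- cells (replicates 1 to 3). All 6 Tfh arrays lay above all 6 PD1- arrays. Scd2 and Pmvk were the 2 of 29 genes without overlap, both higher; among all genes 7.56% did not overlap, 3.49% being higher. Scd2 was 1.35 ± 0.27 higher (SE; 2.55-fold; limma adjusted p = 0.00647) and stayed past the threshold in all 23 alternatives, at adjusted p values between 3.32e-05 and 0.0204. Fads2 stood at 7.16, 6.50 and 6.45 in GFP+ Tfh cells, 6.31, 6.12 and 6.10 in GFP- Tfh cells, 6.28, 5.93 and 5.84 in CXCR5+PD1- cells and 5.95, 5.96 and 5.69 in CXCR5-PD1- cells. Its 3 GFP+ arrays were the highest of the 12, and the GFP- arrays overlapped those of CXCR5+PD1- cells. The difference was 0.50 ± 0.14 (limma adjusted p = 0.0360), but 0.24 (adjusted p = 0.293) without the GFP+ arrays, and leaving out single arrays ended the call for 8 of 12.

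The genes that build and lengthen the fatty acid chain gave no call. Acly, which makes cytosolic acetyl-CoA from citrate, Acaca, acetyl-CoA carboxylase, Fasn, fatty acid synthase, and Fads1, the delta-5 desaturase, differed by 0.01 ± 0.21, -0.06 ± 0.19, -0.05 ± 0.11 and 0.08 ± 0.16 between the Tfh and PD1- gates. Elovl6, which elongates palmitate, stood at 7.48, 7.01 and 6.88 in GFP+ Tfh cells, 7.12, 7.72 and 7.13 in GFP- Tfh cells, 7.03, 8.58 and 7.16 in CXCR5+PD1- cells and 7.53, 7.17 and 7.18 in CXCR5-PD1- cells. CXCR5+PD1- replicate 2 was apart from the other 11 arrays, which overlapped, and the difference was -0.22 ± 0.25. Scd1, the other stearoyl-CoA desaturase measured, was below the filter, between 4.30 and 4.98 on the 12 arrays and under every array median.

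In the mevalonate pathway, 1 gene was lower and 1 higher of 6 tested. Hmgcs1 stood at 7.54, 6.95 and 7.44 in GFP+ Tfh cells, 8.08, 8.03 and 7.76 in GFP- Tfh cells, 8.17, 8.15 and 7.96 in CXCR5+PD1- cells and 8.72, 8.10 and 7.97 in CXCR5-PD1- cells. The GFP+ arrays were the 3 lowest, GFP- replicates 1 and 2 lay within the range of the PD1- gates, and GFP- replicate 3, at 7.76, lay between those and the GFP+ arrays. The difference of both Tfh gates from both PD1- gates was -0.55 ± 0.15 (limma adjusted p = 0.0349); without the GFP+ arrays it was -0.22 (adjusted p = 0.495), and the call was lost for 8 of the 12 arrays left out singly. Pmvk stood at 6.90, 7.26 and 6.59 in GFP+ Tfh cells, 6.93, 6.87 and 6.60 in GFP- Tfh cells, 6.37, 6.32 and 6.58 in CXCR5+PD1- cells and 6.53, 6.54 and 6.32 in CXCR5-PD1- cells. The Tfh and PD1- arrays did not overlap, but the lowest Tfh array, at 6.59, and the highest PD1- array, at 6.58, were next to each other. Pmvk was 0.42 ± 0.12 higher (limma adjusted p = 0.0481), and the call ended for 10 of 12 arrays left out singly. Mvk, mevalonate kinase, Mvd, mevalonate diphosphate decarboxylase, Idi1, the isopentenyl diphosphate isomerase, and Fdps, farnesyl diphosphate synthase, differed by -0.14 to 0.10. Idi1 had a pair of probe sets that disagreed: the one reported averaged 6.99 and 7.25 in GFP+ and GFP- Tfh cells and 7.01 and 7.07 in CXCR5+PD1- and CXCR5-PD1- cells. The other averaged 7.32, 6.79, 6.26 and 6.63 in the same order, higher in both Tfh gates than in both PD1- gates, so the difference given for Idi1 depends on the probe set.

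Of the 9 tested genes between squalene and cholesterol, Nsdhl alone passed the threshold. Nsdhl stood at 7.33, 6.20 and 5.98 in GFP+ Tfh cells, 7.66, 7.85 and 7.18 in GFP- Tfh cells, 7.48, 7.59 and 7.50 in CXCR5+PD1- cells and 8.11, 8.65 and 8.43 in CXCR5-PD1- cells. CXCR5-PD1- cells had the 3 highest arrays, GFP- Tfh and CXCR5+PD1- cells overlapped between them and the GFP+ arrays, and GFP+ replicate 1 lay within the range of GFP- Tfh arrays. Nsdhl was 0.93 ± 0.21 lower on the log2 scale in both Tfh gates together than in both PD1- gates together (limma adjusted p = 0.0158). The GFP- Tfh mean, 7.56, was not below the CXCR5+PD1- mean, 7.52. Nsdhl was called for every array left out singly. It missed the threshold with replicates 1 and 2 alone, at -0.70 (adjusted p = 0.135), and without the GFP+ arrays, at -0.40 (adjusted p = 0.166).

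Fdft1, squalene synthase, which commits farnesyl diphosphate to sterols, was near the threshold in the opposite direction. It stood at 8.82, 8.07 and 7.29 in GFP+ Tfh cells, 8.87, 8.25 and 8.27 in GFP- Tfh cells, 7.61, 7.81 and 7.35 in CXCR5+PD1- cells and 7.59, 7.46 and 7.63 in CXCR5-PD1- cells. GFP+ replicate 3 was below every PD1- array, and the other 5 Tfh arrays were above them all. The difference of both Tfh gates was 0.69 ± 0.22 (limma adjusted p = 0.0760). It was 0.88 and past the threshold without GFP+ replicate 3, and 0.89 (adjusted p = 0.00468) without the 3 GFP+ arrays. Fdft1 passed the threshold in 7 of the 23 alternatives and missed it in 16. With single arrays left out it was called for 1 of 12. Cyp51, the lanosterol demethylase, differed by 0.29 ± 0.12 (adjusted p = 0.174), Sqle, squalene epoxidase, by 0.39 ± 0.23, and Sc5d, the lathosterol desaturase, by 0.20 ± 0.24. Hsd17b7, the ketosteroid reductase of the pathway, stood at 7.45, 7.09 and 7.15 in GFP+ Tfh cells, 7.41, 7.08 and 7.48 in GFP- Tfh cells, 7.82, 7.26 and 8.22 in CXCR5+PD1- cells and 7.27, 7.37 and 7.80 in CXCR5-PD1- cells. The groups overlapped, with a difference of -0.35 ± 0.16 (limma adjusted p = 0.251). Msmo1, the methylsterol oxidase that works before Nsdhl, Dhcr7, the last reductase, and Tm7sf2, a sterol reductase, differed by 0.05 ± 0.32, 0.00 ± 0.11 and 0.13 ± 0.08. Lss, lanosterol synthase, and Ebp, a sterol isomerase, were below the filter.

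**Figure D2:**
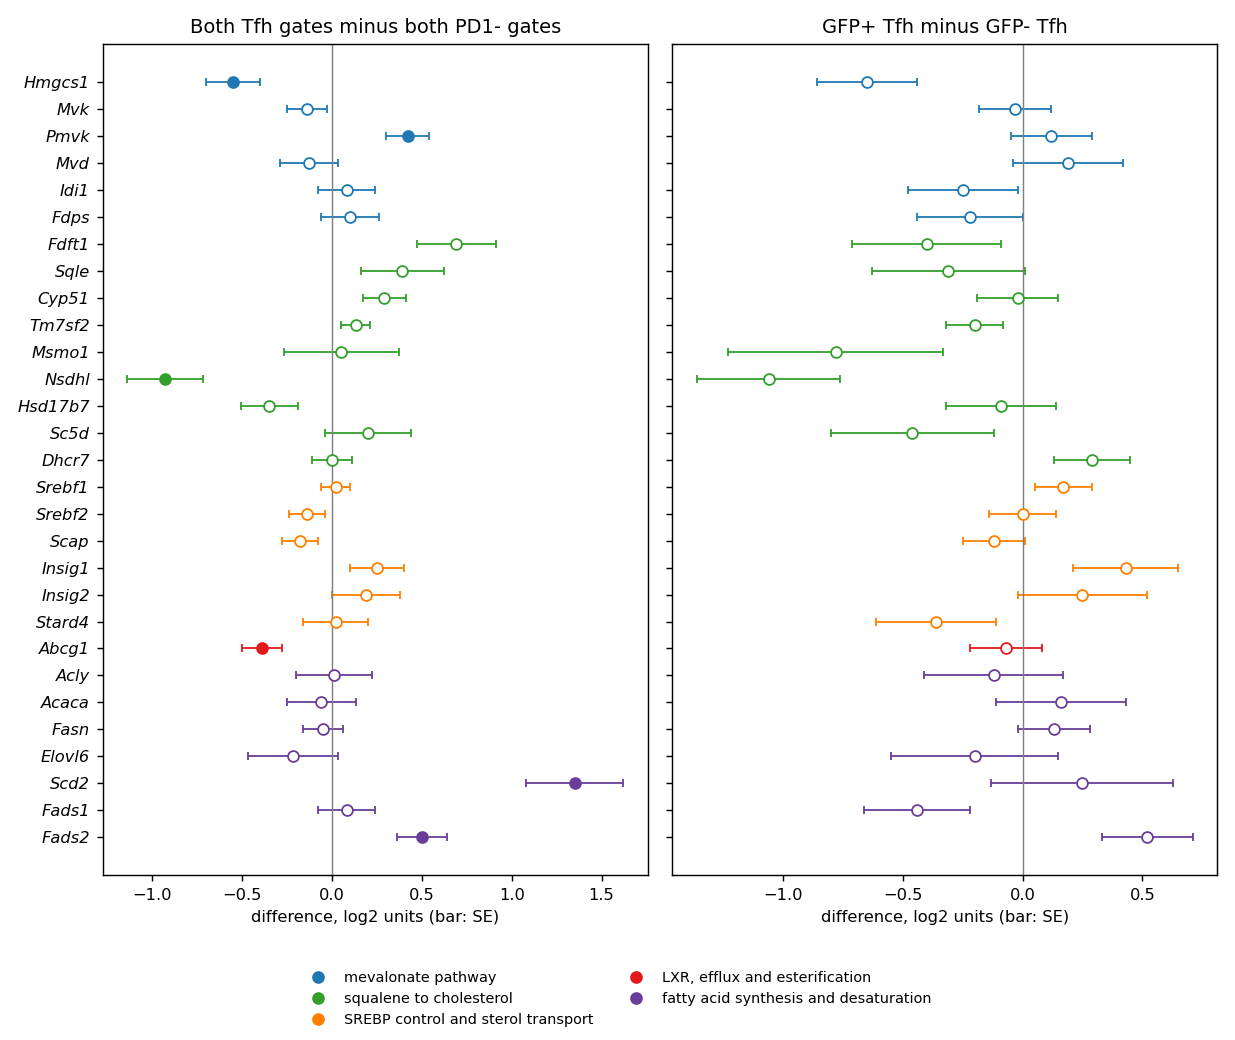
Differences in log2 expression ± SE (x axis) of the 29 tested genes (y axis, coloured by role), with both Tfh gates against both PD1- gates in one panel and GFP+ against GFP- Tfh cells in the other; filled points passed an adjusted p of 0.05. Of the 29, 6 points are filled for the Tfh gates and 0 for the reporter, and in the reporter panel 8 of 9 genes from squalene to cholesterol lie below 0.

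Of the 6 tested control and transport genes 0 passed the threshold, and 0 had an unadjusted limma p under 0.05. Insig1, which retains SCAP and is itself an SREBP target, stood at 9.78, 9.31 and 10.13 in GFP+ Tfh cells, 9.57, 9.20 and 9.14 in GFP- Tfh cells, 9.22, 8.73 and 9.33 in CXCR5+PD1- cells and 9.41, 9.38 and 9.56 in CXCR5-PD1- cells. The Tfh arrays overlapped the PD1- arrays, the difference of both Tfh gates being 0.25 ± 0.15 (limma adjusted p = 0.414). Srebf1 and Srebf2, which encode the SREBPs, differed by 0.02 ± 0.08 and -0.14 ± 0.10, Scap by -0.18 ± 0.10, Insig2, the second retention protein, by 0.19 ± 0.19, and Stard4, a cholesterol carrier, by 0.02 ± 0.18. The SREBPs are controlled by cleavage, which these arrays do not measure.

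Abcg1 was the one tested gene of LXR signalling and efflux. It stood at 7.30, 7.79 and 7.31 in GFP+ Tfh cells, 7.74, 7.34 and 7.54 in GFP- Tfh cells, 7.98, 7.89 and 8.01 in CXCR5+PD1- cells and 7.91, 7.70 and 7.86 in CXCR5-PD1- cells. CXCR5+PD1- cells were above every Tfh array, and CXCR5-PD1- replicate 2 lay within the Tfh range. Abcg1 was 0.39 ± 0.11 lower on the log2 scale in Tfh cells (limma adjusted p = 0.0418), a call that ended for 10 of 12 arrays left out singly. Abca1, the other exporter, and Nr1h3, which encodes an LXR receptor, were below the filter.

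**Figure D3:**
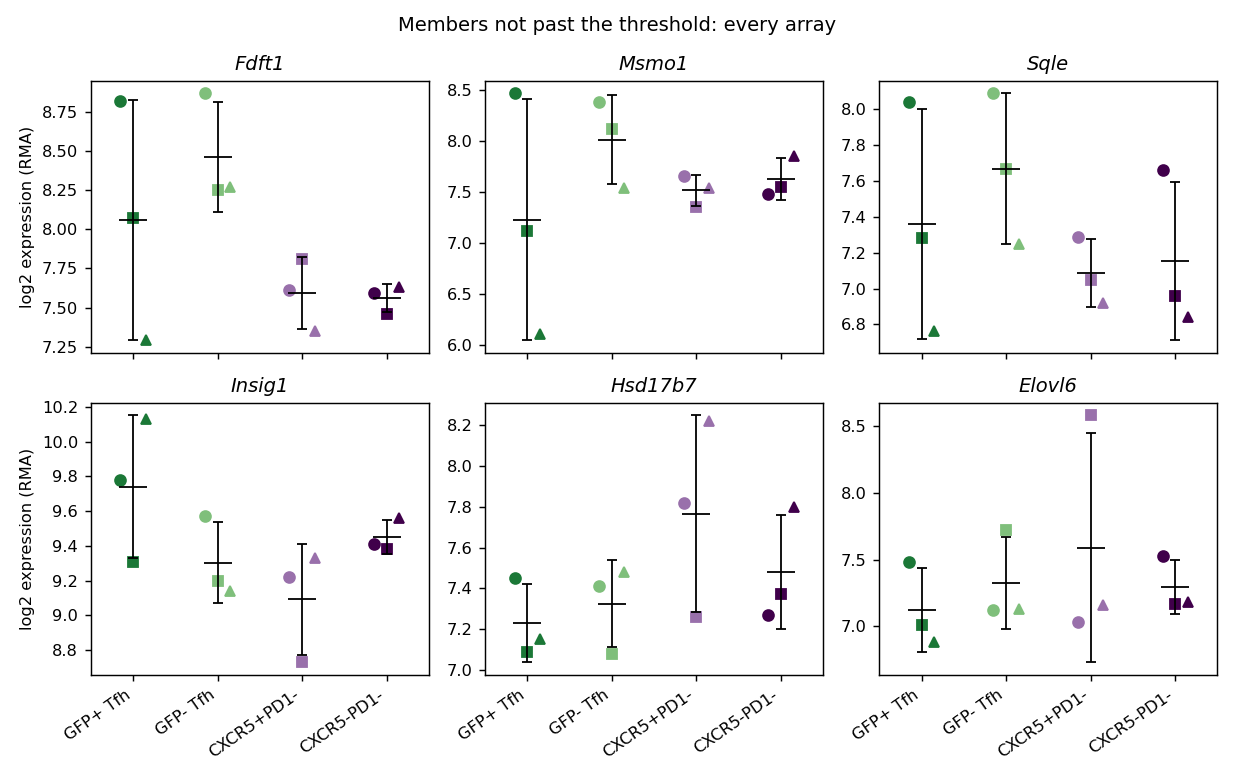
RMA log2 expression (y axis) of 6 genes that did not pass the threshold between the Tfh and PD1- gates, on each array by group (x axis); symbols as replicates 1 (circle), 2 (square) and 3 (triangle), bars the mean ± SD (n = 3). Msmo1 runs from 6.11 to 8.47 within GFP+ Tfh cells, and the high Elovl6 point at 8.58 is CXCR5+PD1- replicate 2.

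The comparison the design text names, GFP+ against GFP- Tfh cells, gave no call among the 29 genes, where 0.0445% (5 of 11240) of all genes were called. At an unadjusted p under 0.05, limma gave 3 of the 29 and 7.37% of all genes. Nsdhl was the largest of them at -1.06 ± 0.30 (limma adjusted p = 0.416), followed by Hmgcs1 at -0.65 ± 0.21 (0.489) and Fads2 at 0.52 ± 0.19 (0.569). Hmgcs1 and Fads2 had no overlap between the 3 GFP+ and the 3 GFP- arrays, as 8.74% of all genes did. Fads2 had passed the filter through GFP+ arrays alone. Of the 9 genes from squalene to cholesterol, 8 had a negative difference, with a median of -0.31; over all 29 genes 18 were negative, with a median of -0.09, and over all 11240 genes 6032 were, with a median of -0.02. Msmo1 stood at 8.47, 7.12 and 6.11 in GFP+ cells and at 8.39, 8.12 and 7.54 in GFP- cells, beside 7.66, 7.36 and 7.54 in CXCR5+PD1- and 7.48, 7.55 and 7.86 in CXCR5-PD1- cells. Thus GFP+ replicate 1 was the highest of the 6 Tfh arrays and replicates 2 and 3 the lowest; the difference was -0.78 ± 0.45 (limma adjusted p = 0.721). Without GFP+ replicate 1, Nsdhl (-1.47, limma adjusted p = 0.0132) and Msmo1 (-1.40, adjusted p = 0.0450) were past the threshold. That setting called 237 of the 11240 genes, against 5 with every array in the fit. Insig1 differed by 0.43 ± 0.22 in the other direction. Beside these, Il21, the reporter's own gene, differed by 0.63 ± 0.56 (limma adjusted p = 0.824), its GFP+ arrays at 10.82, 10.73 and 10.25 all lying above its GFP- arrays at 10.17, 10.15 and 9.57. Of the 6 regulatory T cell genes Il2ra was lower in GFP+ cells (-2.72 ± 0.28, limma adjusted p = 0.00451), and Foxp3 (-0.64 ± 0.18) and Il10 (-1.09 ± 0.30) were not called but did not overlap. Of the 5 tested myeloid genes 0 were called, with Lyz2 at 1.38 ± 0.38 and no overlap (limma unadjusted p = 0.00392, adjusted p = 0.416), while the mean level of the 10 measured myeloid genes was 6.13 to 6.45 on GFP+ and 6.13 to 6.25 on GFP- arrays. The part of these cells in the sterol and fatty acid values was not tested.

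Each Tfh gate was also set against CXCR5-PD1- cells, the same 3 arrays serving both comparisons. In GFP+ Tfh cells 4 of 29 genes (13.8%) were called, against 6.20% of all genes, and 6 did not overlap, against 18.8%; 6 had an unadjusted limma p under 0.05, against 18.7%. Nsdhl was 1.89 ± 0.30 lower on the log2 scale (3.71-fold; limma adjusted p = 0.00313), a call kept in all 17 alternatives, and Hmgcs1 was 0.96 ± 0.21 lower (adjusted p = 0.0185). Fads2 was higher by 0.83 ± 0.19 (limma adjusted p = 0.0245) and Scd2 by 1.42 ± 0.38 (0.0477). Fads2 had passed the filter through GFP+ arrays alone and Scd2 through Tfh arrays alone, so this count of calls carries no weight of its own. With 1 weight per group, which lets the wider spread of the GFP+ arrays count for less, Nsdhl alone remained called (0.00586), the others lying at limma adjusted p values of 0.0719 to 0.0899; without CXCR5-PD1- replicate 1 the count was 1, and without replicate 2 or 3 of that group, or GFP+ replicate 2, it was 2.

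In GFP- Tfh cells 0 of 29 genes were called against CXCR5-PD1- cells, where 3.82% of all genes were; at an unadjusted limma p under 0.05 there were 3, against 13.2%. The largest differences were Scd2 at 1.17 ± 0.38 (limma adjusted p = 0.142), Fdft1 at 0.90 ± 0.31 (0.180) and Nsdhl at -0.84 ± 0.30 (0.208), and Hmgcs1 differed by -0.31 ± 0.21. The arrays did not overlap for 7 of 29 genes, against 21.6% of all genes. With 1 weight per group Scd2, Fdft1 and Nsdhl passed the threshold (limma adjusted p = 0.0171, 0.0296 and 0.0367), and they did so without the GFP+ arrays in the fit (0.00609, 0.0122 and 0.0197).

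CXCR5+PD1- cells differed from CXCR5-PD1- cells at 0 of 29 genes, with 0% of all genes called and 1 gene, against 1.22% of all, at an unadjusted limma p under 0.05. Of the 29, 24 differed by less than 0.2, as did 9349 of all 11240 genes. The arrays of 3 did not overlap (Nsdhl, Insig1 and Acly), against 8.74% of all. Nsdhl was the largest at -0.87 ± 0.30 (limma unadjusted p = 0.0140, adjusted p = 1). Insig1 was at -0.36 ± 0.22, Hsd17b7 at 0.28 ± 0.23, and Elovl6 at 0.30 ± 0.35 with CXCR5+PD1- replicate 2 and -0.20 without it.

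The sterol and fatty acid genes varied most among the GFP+ Tfh arrays. Their median SD was 0.39 there, against 0.26 over all genes, and 0.22, 0.14 and 0.17 in GFP- Tfh, CXCR5+PD1- and CXCR5-PD1- cells, against 0.15, 0.13 and 0.15. Of the 29, 21 had their widest spread in the GFP+ group, as did 60.7% of all genes, and Msmo1 had the widest, with an SD of 1.18. Replicate 1 was the highest GFP+ array for 17 of 29 genes (35.9% of all genes) and replicate 3 the lowest for 16 (36.5%). In GFP- Tfh cells, too, replicate 1 was the highest for 15 (32.3%) and replicate 3 the lowest for 16 (33.3%). Replicate 1 was also the array most often highest in CXCR5+PD1- cells, for 13 (35.2%), and in CXCR5-PD1- cells, for 14 (33.5%). Those arrays had 20 and 22 of the 29 genes above their group mean. In these gates replicate 3 was the lowest for 12 (36.9%) and 11 (35.6%), and replicate 2 for 12 and 13. The low place of replicate 3 in the Tfh gates was thus not shared by the PD1- gates. The genes' median deviation from the group mean was 0.27, -0.07 and -0.25 on GFP+ arrays 1, 2 and 3, and 0.12, 0.06 and -0.16 on the GFP- arrays. Insig1 and Srebf2 were among the exceptions, being highest on GFP+ replicate 3, at 10.13 and 8.53. What separates the replicates was not tested.

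**Figure D4:**
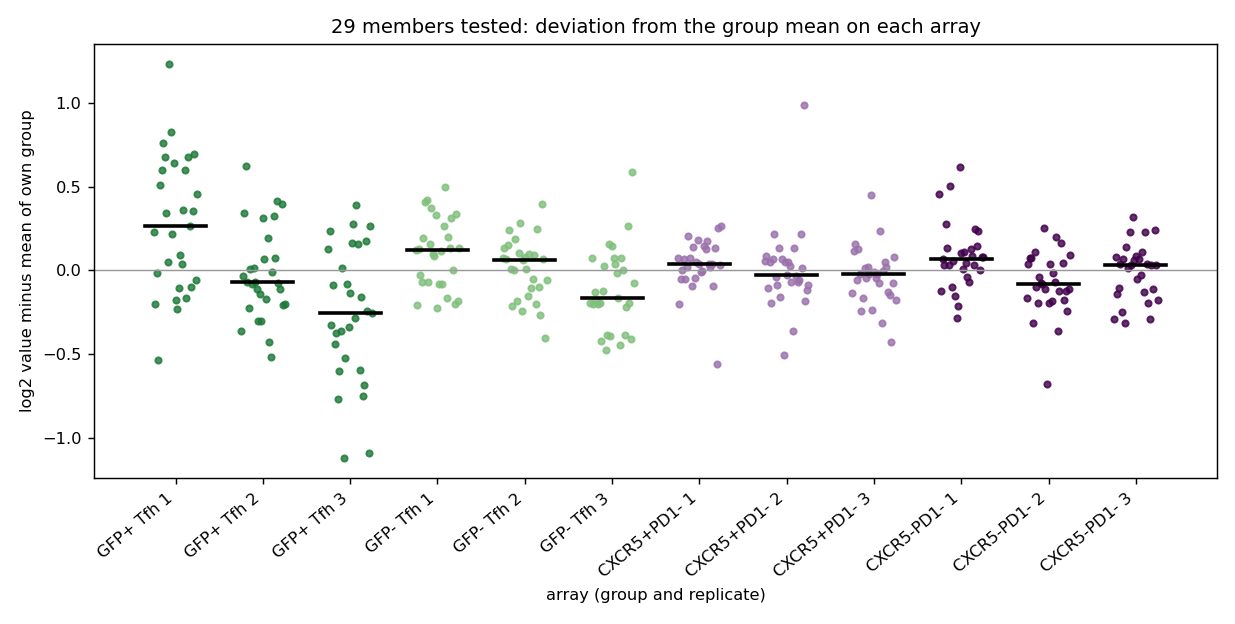
Deviation in log2 expression from the mean of its own group (y axis) for each of the 29 tested genes, on each of the 12 arrays (x axis); points are genes and the black line their median. The medians are 0.27 and -0.25 on GFP+ replicates 1 and 3 and 0.12 and -0.16 on GFP- replicates 1 and 3.

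Of the genes next to these pathways, from lists of related functions, some were called in each direction between the Tfh and PD1- gates, where 5.05% of all genes were called higher and 5.33% lower. Isoprenoid use (9.09% of its tested genes called) and the other fatty acid genes (12.5%) were near the 10.4% of all genes, and each of the other lists had 1 to 3 genes called of 3 to 12 tested. Of 7 other sterol enzymes and SREBP-processing genes, Erlin1, which helps degrade HMG-CoA reductase, was 0.71 ± 0.20 higher and Lbr, the lamin B receptor with sterol reductase activity, 0.43 ± 0.11 lower on the log2 scale. Of 11 genes of isoprenoid use 1 was lower, Nus1 (-0.68 ± 0.15), a subunit of the enzyme that makes dolichol. Of 9 genes of lipoprotein uptake and sterol transport 2 were lower: Npc2, which binds cholesterol in the lysosome (-1.15 ± 0.11, limma adjusted p = 5.54e-05), and Osbpl9, an oxysterol-binding protein relative (-0.72 ± 0.17). Of 3 genes of oxysterol making and sensing, Rora, a nuclear receptor, was higher (0.56 ± 0.13). Of 16 other genes of fatty acid synthesis, elongation and activation 2 were higher, Lpin2, a phosphatidate phosphatase (0.54 ± 0.10), and Hacd3, a chain elongation dehydratase (0.75 ± 0.21). Of 12 genes of fatty acid oxidation, Decr1, which handles unsaturated chains, was higher (1.14 ± 0.15, limma adjusted p = 5.15e-04), and Slc25a20, the carnitine carrier, and Acaa2, a thiolase, were lower (-0.54 ± 0.11 and -0.58 ± 0.16). Without the GFP+ arrays Lbr, Nus1, Osbpl9 and Acaa2 missed the threshold (limma adjusted p = 0.106, 0.102, 0.174 and 0.193), whereas Npc2, Lpin2 and Decr1 kept their calls in all 23 alternatives. Leaving out single arrays ended the calls of Hacd3 for 9 of 12, of Erlin1 and Acaa2 for 8, of Lbr for 6, of Osbpl9 for 4 and of Rora for 2.

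Markers of division and of other cells were set beside these results. Of 12 tested cell cycle genes, 5 were higher and 0 lower in Tfh cells. Of all genes, 5.05% were called higher and 5.33% lower. Mcm6 (1.12 ± 0.17), Top2a (0.76 ± 0.16) and Kif11 (0.69 ± 0.15) were among the 5. Kif11 passed the filter through Tfh arrays alone, so this count carries no weight of its own. The mean level of the cell cycle list on single arrays was 6.68 to 7.27 in GFP+ Tfh and 6.85 to 7.14 in GFP- Tfh cells. It was 6.54 to 6.63 in CXCR5+PD1- and 6.47 to 6.58 in CXCR5-PD1- cells. Of 6 regulatory T cell genes 2 were higher (Ikzf2, 1.87, and Ctla4, 1.05) and 2 lower (Il2ra, -1.74, and Foxp3, -0.47), and that list ran from 9.23 to 9.44 in GFP- Tfh cells and from 8.46 to 9.02 on the arrays of the other groups. The part of dividing or regulatory T cells in the sterol and fatty acid results was not tested. The B cell list stayed between 5.41 and 5.70 on all arrays, below the array medians, with Ms4a1 and Cd79a under the filter and Pax5 called at 0.30. Pax5, too, passed the filter through Tfh arrays alone. Epithelial, myeloid, stromal and germinal centre B and plasma cell lists gave 0 calls, at 2, 5, 5 and 5 genes tested, of which 1, 0, 1 and 2 had an unadjusted limma p under 0.05.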

How the data were processed

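Total RNA from sorted Peyer's patch CD4+ T cells of 4 groups of 3 was hybridised to 12 arrays. The deposited log2 values had been computed by RMA with oligo (per the submitters' processing notes, without a version); no genome build is given in the sources used here. RMA's between-array scaling hides a shift shared by all genes. Of 34760 probe sets, 21640 had 1 gene symbol in the platform annotation (21553 updated by gene identifier through RefSeq, 87 kept as given), 1321 had several and 11799 none. The probe set with the highest mean stood for a gene (954 genes had several), and genes above the array's median on at least 3 arrays were tested. One linear model of all 12 arrays (limma 3.58.1, R 4.3.3, lmFit and eBayes, 8 residual degrees of freedom) gave 5 contrasts, each adjusted by Benjamini-Hochberg over 11240 genes at 0.05; errors of differences are the moderated SE. The number of arrays limits precision. No arrays held identical values.

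Genes and lists were chosen with earlier results of these data known. Array values are given for genes called in any comparison and for the 2 highest and 2 lowest differences of each; of related lists, up to 3 genes with the smallest p are named.

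Alternatives were no filter, a stricter filter, trended robust moderation, weights per group or array, cyclic loess, equal medians, averaged probe sets per gene, a replicate block, subsets of groups or replicates and each array left out. Same-numbered arrays correlated above 0.1 in all 3 pairs for CXCR5+PD1- over CXCR5-PD1- cells alone (0.210 to 0.353). In the other comparisons the correlations ran from 0.0118 to 0.283. For GFP+ and GFP- Tfh cells they were 0.253, 0.0411 and 0.283. The main fit took no numbers as pairs in any comparison, the replicate block being an alternative. On simulated data with 200 changed genes of 11240, the main fit recovered 88.2% of those changed by 1 log2 unit for the Tfh contrast. Of its calls 7.29% were false. For GFP+ over GFP- Tfh cells it recovered 74%, with 23.2% false among calls. Both false shares exceeded the threshold of 0.05. With 1 weight per group the fit recovered 88.4% with 4.6% false, and 61.1% with 4.22% false, in the same order. Recovery and false calls for GFP+ Tfh over CXCR5-PD1- cells were not tested.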

Additional observations from a re-analysis of the deposited data

How the results depend on the processing

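The count of the 29 genes called between the Tfh and PD1- gates, 6, was 3 with replicates 1 and 2 alone, 2 without the GFP+ arrays (a setting chosen after seeing the data) and 2 to 7 with single arrays left out; every other setting gave 4 to 7. For GFP+ over GFP- Tfh cells the count of 0 was 1 with a weight per array and 0 to 2 with single arrays left out. For GFP- Tfh over CXCR5-PD1- cells the count of 0 was 3 with a weight per group, a weight per array, the 2 groups alone or no GFP+ arrays, 1 with replicates 1 and 2 alone and 0 with any single array left out. For GFP+ Tfh over CXCR5-PD1- cells the count of 4 was 1 with a weight per group or the 2 groups alone, 2 with cyclic loess and 1 to 5 with single arrays left out. CXCR5+PD1- over CXCR5-PD1- cells gave 0 in every setting. Elovl6 in that comparison, 0.30, ran from -0.20 to 0.58 with single arrays left out, the reversal being without CXCR5+PD1- replicate 2.

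Over all genes the 1167 calls of the Tfh contrast were 1981 with a weight per array. The 5 calls of GFP+ over GFP- Tfh cells were 95 with a weight per array, 3 with a weight per group, 0 with the 2 groups or replicates 1 and 2 alone, and 237 without GFP+ replicate 1. The 429 calls of GFP- Tfh over CXCR5-PD1- cells were 791 and 912 with weights per group and array, 665 with the 2 groups alone, 865 without the GFP+ arrays, 266 with replicates 1 and 2 alone, and 228 to 326 with single arrays left out. The 697 calls of GFP+ Tfh over CXCR5-PD1- cells were 314 and 1411 with weights per group and array, 255 with the 2 groups alone, 392 with replicates 1 and 2 alone, and 348 to 1147 with single arrays left out. Why these counts moved was not tested. With the replicate block, the members' counts were 6, 0, 0, 4 and 0 in the order above; Fdft1 gained a call in the Tfh contrast (limma adjusted p = 0.0400) and Abcg1 lost its own (0.0648). The block rests on shared replicate numbers, and between the PD1- gates it changed no call.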
